A study of Brassica juncea with 9 samples.

Results

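In leaves of *Brassica juncea* (Indian mustard), 109 of 43603 probes on the array, or 0.25%, were detected in every plant given alkaline salt and in no plant of the other groups. These 109 probes stand for 107 of the 40632 transcript identifiers on the array, and each was printed as 1 spot. They were chosen by the scanner software's flag for a spot well above background, which had to be set on all 3 alkaline salt arrays and on none of the 6 others. Their difference from salt and control plants is therefore given as a description, with no test.

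Plants of genotype NDR8501 were raised in hydroponic culture and were 5 weeks old at sampling. The alkaline salt group had received 50 mM NaCl with 2.5 mM bicarbonate for 4 weeks, the salt group 50 mM NaCl for 4 weeks, and the control group neither. Each group had 3 biological replicates, each array held RNA from a middle leaf of 1 plant, and the 3 slides each carried 1 array of every group, numbered as the replicates are. The scan dates in the file headers are earlier than the growing period given in the labels. The groups here rest on the sample labels. The leaf was sampled whole, so fewer cells of a type and less RNA per cell cannot be told apart.

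Alkaline salinity joins the sodium load of saline soil to a high pH. Bicarbonate buffers the solution around the root and lowers the solubility of iron, zinc and phosphate, and plants sensitive to it turn yellow between the veins of young leaves. In the files a probe carries only its array identifier and a transcript identifier, with neither gene nor sequence, so the members are described by their behaviour on the arrays, the leaf label could not be checked against marker genes, and 2 members are given by array identifier.

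Between 16799 and 22063 probes, or 38.5% to 50.6%, were well above background on an array. Signals are given as log2 processed intensity minus the 75th percentile of the same array, so a value of 0 lies at that percentile. On this scale the lowest detected signal, called the floor here, differed between arrays. It was −2.14, −2.08 and −3.78 in alkaline salt replicates 1 to 3, −2.06, −3.55 and −2.40 in salt replicates 1 to 3, and −2.23, −2.88 and −2.10 in control replicates 1 to 3. Alkaline salt replicate 3 and salt replicate 2 thus had the lowest floors and the most detected probes.

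Detection in 1 group alone was seen mostly with alkaline salt. With the same rule applied to each group in turn, 109 probes were detected only under alkaline salt, 4 only under salt and 3 only in control leaves. A further 4 probes were detected in all alkaline salt and salt plants and in no control plant. Another 4 were detected in all alkaline salt and control plants and in no salt plant. The opposite of the alkaline salt pattern, with detection in all 6 salt and control plants and in no alkaline salt plant, was found for 46 probes. The members made up 0.676% of the 16120 probes detected in all 3 alkaline salt plants and 0.533% of the 20442 probes detected in no salt or control plant.

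**Figure D1:**
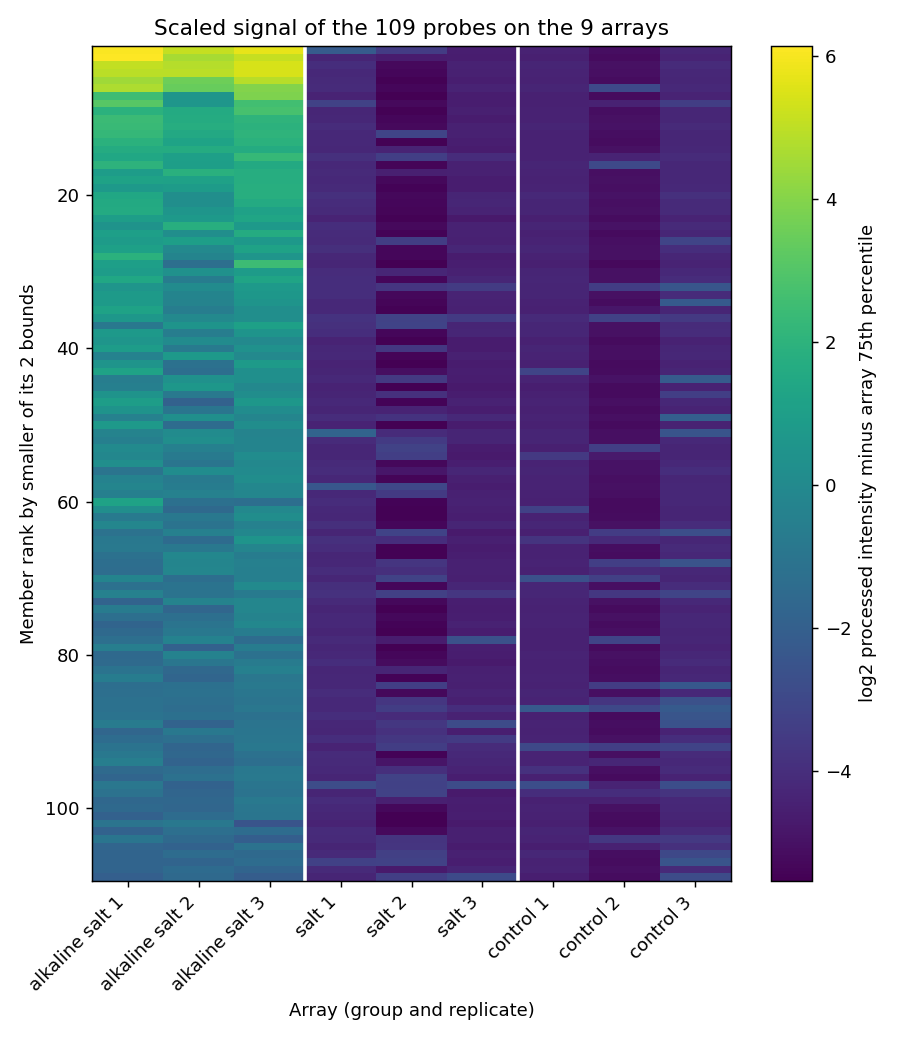
Signal of the 109 members (rows, ordered by the smaller of their lower bounds over salt and control) on the 9 arrays (columns), as log2 processed intensity minus the array's 75th percentile. The 3 alkaline salt columns are brighter than the 6 salt and control columns for all 109 members, and 6 members at the top stand apart.

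In salt and control leaves the median signal of the members was close to that of probes that were never detected, although fewer of their spots were at or below background. Their median signal was −0.35, −0.64 and −0.07 in alkaline salt replicates 1 to 3, against −4.17, −5.24 and −4.51 in salt replicates 1 to 3 and −4.38, −5.04 and −4.20 in control replicates 1 to 3. The 19712 probes detected on no array had medians of −4.18, −5.40 and −4.49 in the same salt replicates and −4.39, −5.09 and −4.23 in the control replicates. The difference between members and never-detected probes was thus at most 0.16 on a salt array and at most 0.05 on a control array, and between 3.67 and 5.27 on the alkaline salt arrays. The rule asked for detection on the alkaline salt arrays, so an excess over never-detected probes there is nearly fixed by it. For the same reason no alkaline salt value of a member had a background-subtracted signal at or below 0. Of the salt values 211 of 327 (64.5%) did, and of the control values 221 of 327 (67.6%). Among the never-detected probes the shares were higher, with 86.7% of salt values and 88.7% of control values at or below 0. The scanner software reports a positive processed intensity for such spots too, so the low values have no order among themselves.

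**Figure D2:**
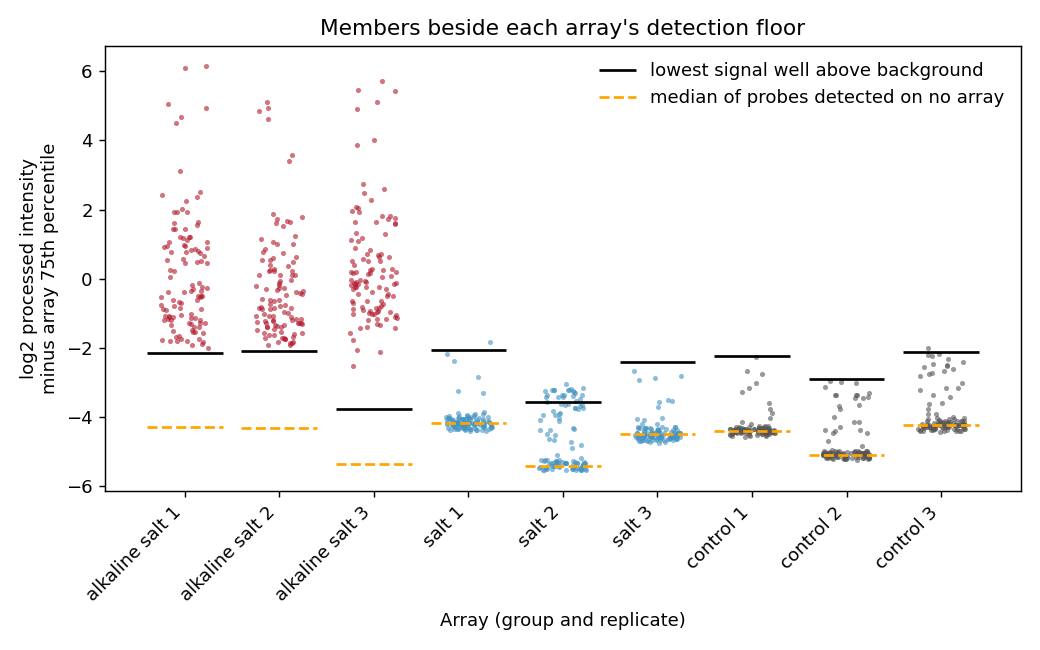
Signal of each of the 109 members (points, spread sideways at random) on each array, as log2 processed intensity minus the array's 75th percentile, with the lowest detected signal of the array (black line) and the median of the 19712 probes detected on no array (dashed line). The members lie above the black line on the 3 alkaline salt arrays and mostly near the dashed line on the 6 others, with more scatter towards the black line on salt replicate 2.

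Detection in alkaline salt alone depends on how strict detection is. By the weaker flag of the scanner software, which asks only for a signal above 0 that is significant against background, 48 members did not pass in any salt or control plant. The other 61 passed the weaker flag on at least 1 of the 6 arrays, 2 of them on all 6. Salt replicate 2 gave the most, with 54 members, against 8 and 11 in salt replicates 1 and 3 and 14, 27 and 27 in control replicates 1 to 3. For 23 members the signal on salt replicate 2 exceeded that array's floor although the spot was not flagged. Applied with the weaker flag, the rule gave 72 probes, of which 48 were members. Without salt replicate 2 it gave 211 probes, since 102 probes missed membership on that array alone. Without alkaline salt replicate 2 it gave 166.

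For a probe not well above background in a group, only a lower bound of the difference can be given. The mean of the 3 alkaline salt plants was set against the mean, over the arrays of the other group, of the higher of the probe's own signal and the floor of that array. The median bound was 2.37 on the log2 scale over salt, or at least 5.16-fold, with bounds from 0.72 to 8.29. Over control it was 2.12, or at least 4.36-fold, with bounds from 0.52 to 8.05. The medians of these bounds differed between single alkaline salt plants with an SD of 0.33 over salt and 0.28 over control (n = 3). Within slides 1 to 3 the median bound was 1.69, 2.77 and 2.33 over salt, and 1.87, 2.24 and 2.03 over control.

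By these bounds 67 of 109 members were at least 4-fold higher in alkaline salt than in salt leaves, a size reached by 2.44% of all 17798 probes tested when their means were raised to the floors. Over control leaves 59 members were at least 4-fold higher, a size reached by 2.4% of the probes tested. The rule used these same values, so nothing is read from the excess. At the low end, 9 members had a bound over control under 1, that is, under 2-fold. The size of the bounds moves with background correction: with normexp the medians were 1.16 over salt and 1.095 over control. With 1 common floor for all arrays both were 1.78.

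**Figure D3:**
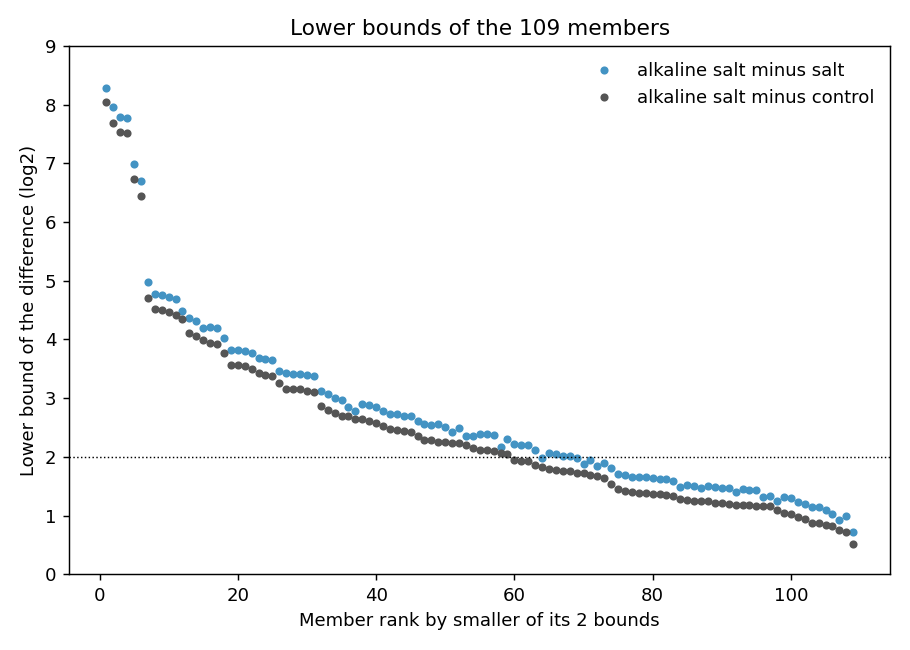
Lower bound of the log2 difference for each of the 109 members, over salt (blue) and over control (grey), ordered by the smaller bound. The dotted line marks a 4-fold difference. The first 6 members lie between 6.44 and 8.29, and a step of 1.73 separates ranks 6 and 7.

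The smaller bound was that over control for all 109 members. Of their 654 salt and control values, 25 exceeded the floor of the array. The order of the bounds therefore mostly follows the floors, which among these arrays were lowest on salt replicate 2 (−3.55). It does not show that members were nearer to control than to salt leaves. By the smaller bound, 6 members stood apart. Their smaller bounds ran from 6.44 to 8.05, whereas rank 7 had 4.71 and the largest later step between neighbours was 0.25. In all, 14 members had both bounds at 4 or more, that is, at least 16.6-fold over control.

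The largest bound belonged to A_46_P267718. Its processed intensity was 60349, 56771 and 46724 in alkaline salt replicates 1 to 3, against 240.5, 37.6 and 74.4 in salt replicates 1 to 3 and 42.1, 38.3 and 83.6 in control replicates 1 to 3. After scaling these were 6.10, 5.11 and 5.73 in alkaline salt, −2.16, −3.47 and −4.56 in salt, and −4.41, −5.08 and −4.30 in control leaves. The groups did not overlap, and salt replicate 1 was the brightest of the 6 undetected spots. The probe passed the weaker flag on 2 of these 6 arrays. On salt replicate 2 its signal exceeded that array's floor (−3.55) although the spot was not flagged as well above background. Alkaline salt leaves averaged 5.65 ± 0.50 (SD, n = 3), which was at least 312-fold higher than salt and at least 265-fold higher than control leaves.

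The next, A_46_P320505, had a processed intensity of 62503, 40236 and 30333 in alkaline salt replicates 1 to 3, against 53.7, 16.8 and 72.3 in salt and 39.3, 35.9 and 78.7 in control replicates 1 to 3. Its scaled signals were 6.15, 4.61 and 5.11 in alkaline salt, −4.32, −4.64 and −4.60 in salt, and −4.51, −5.18 and −4.38 in control leaves. The alkaline salt plants differed among themselves more than for the first probe, with a mean of 5.29 ± 0.78 (SD, n = 3), and lay far above every other plant. The bound was at least 249-fold over salt and at least 207-fold over control leaves. This probe passed the weaker flag on 1 of the 6 salt and control arrays.

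Ranks 3 and 4 had like signals in each of the 3 alkaline salt plants, although they belong to different transcript identifiers. The member at rank 3 had 5.06, 4.86 and 5.45 in alkaline salt replicates 1 to 3, against −4.02, −5.25 and −4.40 in salt and −4.31, −4.99 and −4.11 in control replicates 1 to 3. That at rank 4 had 4.94, 4.94 and 5.44 in alkaline salt, against −4.17, −5.33 and −4.48 in salt and −4.37, −5.05 and −4.24 in control leaves. Neither passed even the weaker flag in any salt or control plant. Their bounds were at least 222-fold and 219-fold over salt, and at least 185-fold and 182-fold over control.

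Ranks 5 and 6 complete the group that stood apart. Rank 5 had 4.50, 3.57 and 4.91 in alkaline salt replicates 1 to 3, against −4.16, −5.45 and −4.57 in salt and −4.42, −5.14 and −4.26 in control replicates 1 to 3. Rank 6 had 4.69, 3.42 and 4.00 in alkaline salt, against −4.11, −5.31 and −4.38 in salt and −4.34, −2.95 and −4.19 in control leaves. Control replicate 2 was its brightest undetected spot. Rank 6 passed the weaker flag on 1 of the 6 salt and control arrays, and rank 5 on 0 of them. By scaled signal, alkaline salt replicate 2 was the lowest of the alkaline salt plants at ranks 5 and 6, as for the first 2 members. This depends on the scaling. In processed intensity replicate 3 was the lowest for the first 2 members and at rank 6 (14091, against 17544 in replicate 2). At rank 5 replicates 1 and 2 were close, with 19926 and 19492.

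In every member the alkaline salt plants were apart from the others. The lowest alkaline salt signal exceeded the highest of the 6 other signals for 109 of 109 members, which held for 13.6% of the 17798 probes tested and is nearly fixed by the rule. The gap between these signals had a median of 2.79 and ran from 0.72 to 9.11. The gap was at least 1 for 103 members and at least 2 for 83. For 35 members all 6 other spots had a background-subtracted signal at or below 0, so the size of their gaps is not a measured separation. Above the highest floor of any array, 107 members lay in all 3 alkaline salt plants, and the other 2 were below it in alkaline salt replicate 3, which had the lowest floor. The common floor, used on every array in place of the flag, chose 205 probes, of which 105 were members.

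The probe with the smallest bound and the smallest gap shows the other end. It had −2.00, −1.55 and −2.10 in alkaline salt replicates 1 to 3, against −4.34, −3.37 and −2.92 in salt and −4.55, −5.15 and −2.82 in control replicates 1 to 3. Salt replicate 3 and control replicate 3 came nearest to the alkaline salt plants. Its bounds were at least 1.65-fold over salt and 1.43-fold over control leaves.

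Just outside the rule, 130 probes were detected in all 3 alkaline salt plants and in 1 of the 6 others. For 102 of these the 1 other plant was salt replicate 2, and for 18 it was control replicate 2. With signals raised to the floors, their median difference was 1.54 over salt and 1.58 over control. A further 108 probes were detected in 2 alkaline salt plants and in no other plant, and had a median difference of 0.94 over salt and 0.68 over control. The alkaline salt plant that missed was replicate 1 for 50 of them, replicate 2 for 57 and replicate 3 for 1.

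Members varied more between alkaline salt plants than other detected probes did. Their median SD over the 3 plants was 0.53, with quartiles of 0.35 and 0.70. Among the 5990 other probes detected in all 3 alkaline salt plants whose mean signal lay between the quartiles of the members, the median SD was 0.25, with quartiles of 0.15 and 0.41. These other probes were matched on mean signal alone and not on a rise in alkaline salt, so the spread is not shown to be particular to members. The highest and lowest plant differed by at most 2-fold for 54 members and by over 4-fold for 10, with a largest difference of 3.75 on the log2 scale. None of these 10 was among the first 6 members.

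Among the alkaline salt plants, replicate 2 was most often the lowest by scaled signal. Replicate 2 was the lowest plant for 66 members (60.6%), replicate 1 for 35 and replicate 3 for 8. Among the 5990 other probes of like signal, replicate 2 was the lowest for 34.1%, replicate 1 for 35.8% and replicate 3 for 30.1%. Replicate 3 was the highest plant for 48 members, replicate 1 for 40 and replicate 2 for 21. Of the 10 members that differed by over 4-fold, 9 were lowest in replicate 2. The members share their arrays and were not tested against the other probes.

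Other probes of the same transcripts give a second reading of the same plants. Of the 107 transcripts, 10 (9.35%) carried more than 1 probe, against 6.18% of all transcripts on the array. They held 12 members and 14 probes that are the partner of a member. These probes come from the same contrast as the rule, so they are described without a test. Of the 14, 4 are members themselves, for which the separation of the groups is nearly fixed by the rule. Among the 10 that are not members, every alkaline salt plant was above every salt and control plant for 9. The same held for 13.6% of the 17798 probes tested. The median difference of the 10 non-members over salt was 1.498, with a range from −0.70 to 4.93. Over all 14 the median was 3.49 over salt with the 4 members included, and 1.41 with normexp. The median over all tested probes was 0.00. Signals at background enter these medians as measured, so they are no bounds.

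For 2 of the 10 transcripts both probes were members, and the alkaline salt plants kept their order between the paired probes in both. In the transcript drawn as number 3, the probes had 0.46, 1.80 and 0.73 and −0.37, 0.76 and −0.04 in alkaline salt replicates 1 to 3, so replicate 2 was the highest for both. Their bounds over salt were 3.67 and 2.79, and over control 3.40 and 2.52. In transcript 4 the alkaline salt values were 0.94, 1.88 and 1.76 for one probe and −1.06, 0.12 and 0.07 for its partner. Replicate 1 was the lowest for both probes, as in transcript 3.

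The other 8 transcripts had 10 probes that were not members, and these fell into unlike patterns. Both readings of transcript 2 were far higher in alkaline salt leaves. Its second probe had 2.48, 0.70 and 2.09 in alkaline salt replicates 1 to 3, against −2.48, −2.76 and −4.29 in salt and −2.14, −2.81 and −2.47 in control replicates 1 to 3. It missed the rule because it was detected in 1 salt and 1 control plant. The second probe of transcript 5, detected in 1 salt plant, was higher by 3.89 over salt with undetected signals entered as measured. Being detected in no control plant, it was higher by at least 2.85 over control, with signals raised to the floors. These values are unlike measures and cannot be set against each other. Transcript 1 is that of the member with the smallest bound, and its second probe was detected in all 3 alkaline salt, 3 salt and 2 control plants. It was higher in alkaline salt by 0.89 over salt and 1.00 over control. The margin between single plants was narrow, with −1.306 in alkaline salt replicate 3 and −1.319 in control replicate 3.

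In 4 transcripts the non-member probes, 5 in all, were detected on all 9 arrays. For transcript 8 the pair of non-member probes was higher in alkaline salt by only 0.75 and 0.86 over salt, and by 0.69 and 0.74 over control, whereas the member had bounds of 1.47 and 1.203. For transcript 7 the partner was higher by 0.90 over salt and 0.62 over control, where the member had bounds of 1.40 and 1.19. The partner of transcript 10 was higher by 2.09 over salt and 1.99 over control. In transcript 9 the partner had 8.02, 7.04 and 7.75 in alkaline salt replicates 1 to 3, against 4.45, 4.26 and 4.84 in salt and 4.15, 3.62 and 4.71 in control replicates 1 to 3. All 3 alkaline salt plants were above the other 6, and this probe detected the transcript in every group.

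Transcript 6 gave readings of opposite sign. Its member averaged 0.06 ± 1.28 in alkaline salt, with a low of −1.32 in replicate 2, against −4.65 ± 0.41 in salt and −4.21 ± 1.00 in control leaves (SD, n = 3 each). A second probe followed it, with 0.85, −2.19 and 0.01 in alkaline salt, and missed the rule because replicate 2 was not detected. The remaining probe had −1.21, −2.30 and −1.95 in alkaline salt, against −0.75, −1.71 and −0.90 in salt and −1.04, −1.35 and −1.30 in control leaves. It was lower by 0.70 than in salt and by 0.59 than in control leaves, and the alkaline salt plants overlapped with both other groups.

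**Figure D4:**
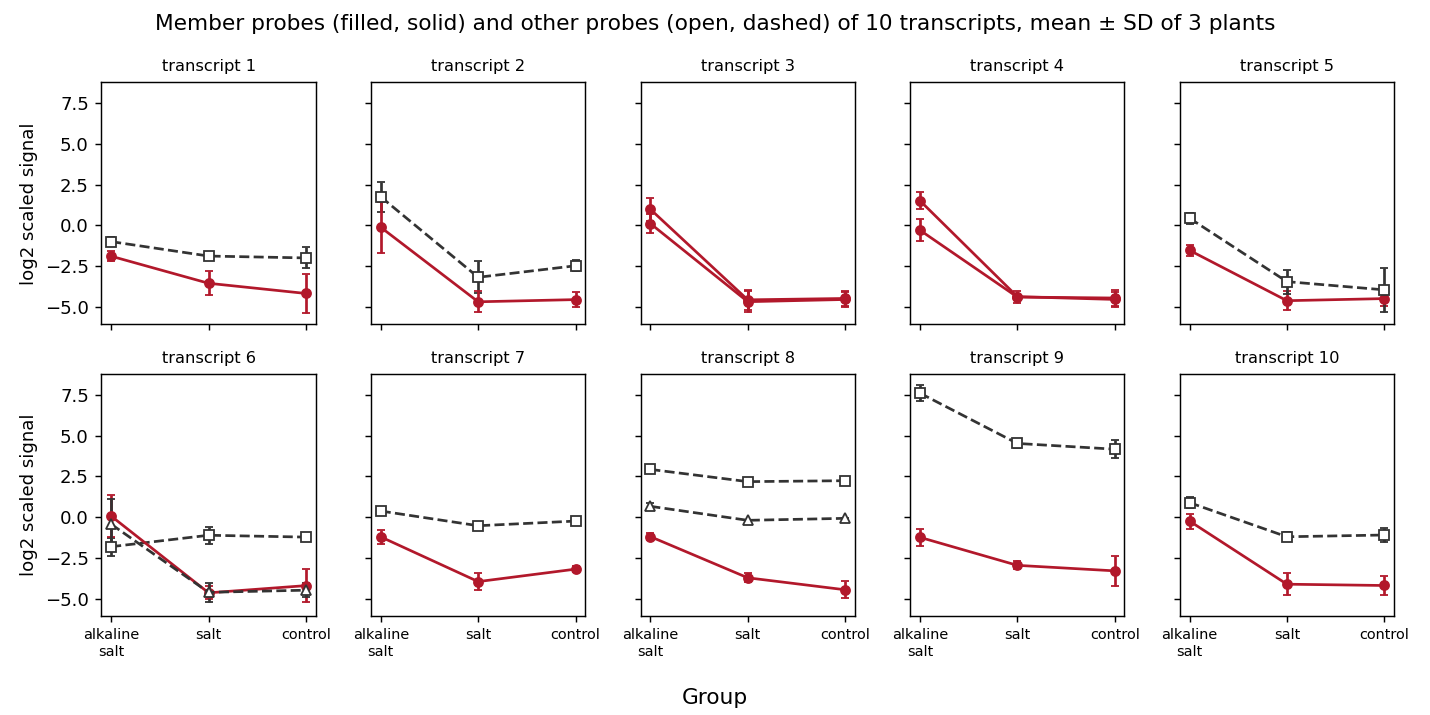
Mean signal ± SD (n = 3 plants) by group for the member probes (red, filled, solid lines) and the other probes (open, dashed lines) of the 10 transcripts with more than 1 probe, as log2 processed intensity minus the array's 75th percentile. In transcripts 3 and 4 both probes are members. In transcripts 7 to 10 the other probes are detected in every group, with flatter lines than the member in transcripts 7, 8 and 10, and in transcript 6 a dashed line runs the opposite way.

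Salt against control cannot show whether NaCl without bicarbonate moved these transcripts, because the rule required every member to be undetected in both groups. The members also entered the fit only through the alkaline salt arrays, so their counts are given as a description. All 109 members were in the fit, and 0 were called by limma at an adjusted p under 0.05, where 0.0337% of the 17798 probes tested were called (6 probes). At an unadjusted p under 0.05 by limma there were 4 members, or 3.67% of them, against 5.89% of all probes tested. Nothing is read from these counts. The median difference of the members was −0.11, and that of the 19712 never-detected probes was −0.12. No member was well above background in either group, so these values give no fold, and a change below the floor could not have been seen. Of the 10 non-member partner probes, which the rule did not choose, 9 were in the same fit, and 0 were called by limma, with 0 at an unadjusted p under 0.05. On simulated data the fit recovered 12.8% of 2-fold changes, so a change of that size would mostly have been missed.

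The transcript identifiers of the members leaned away from those that start with TA. Such identifiers made up 7.34% of members (8 probes), 15.4% of all probes and 22.8% of the probes detected in all 3 alkaline salt plants. Identifiers starting with TC made up 19.3% of members, 17.3% of all probes and 14.1% of the detected ones. The remaining 80 members carried other identifiers. These shares were not tested.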

How the data were processed

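Spot intensity, on a linear scale, was deposited for each array as Agilent Feature Extraction 10.1.1.1 wrote it from 1 dye, per the file headers. Version 10.5.1.1 is named in the submitters' processing notes. The processed intensity is corrected for background within an array and not between arrays. The deposited value table holds log2 values by the authors, with no stated method. Of its values 99.98% lay within 0.1 of the quantile-normalised log2 processed intensity, and its column medians were 6.26 to 6.27.

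Of 45220 spots per array, 1417 control spots and outlier-marked spots were left out, and no gene spot was saturated. Repeated spots were averaged, and a probe counted as detected if at least 50% of its spots were flagged. Log2 intensities were scaled to the 75th percentile of each array. Group means were fitted with limma 3.58.1 in R 4.3.3 to the 17798 probes well above background on all arrays of a group, two-sided, with Benjamini-Hochberg adjustment over all of them. The fit was tested on simulated data. Normexp ran on median spot signals, with an offset of 50. Figures used matplotlib 3.10.9.

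The members and all other choices were made with earlier results of these data known. The 2 members named have the largest value of the smaller bound. Gene and marker lists were not applied, as probes carry no gene names. The number of arrays limits the precision.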

Additional observations from a re-analysis of the deposited data

How the results depend on the processing

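The number of probes detected only under alkaline salt was 72 with the positive and significant flag and 205 with a common floor in place of the flag, an alternative chosen after seeing the data. Leaving out single arrays gave 110 to 211, and the count was 103 with a gap of at least 1. The median lower bound over control was 1.095 with normexp and 1.78 with the common floor, and that over salt 1.16 and 1.78. Leaving out single arrays gave 1.95 to 2.67 over salt, the lowest without salt replicate 2. The other probes of the same transcripts, 4 of them members, had a median difference over salt of 1.41 with normexp, against 3.49; that of the 10 non-members was 1.498 without it. The cause was not tested. The remaining alternatives moved the medians by less than 1 SD between plants. For salt against control, 0 members were called by limma in all 18 alternatives, with 2 to 8 members at an unadjusted p under 0.05. Over all probes tested, 0 to 63 of 17798 were called, and 2 of 43603 without the filter on dim probes. In the main fit 5.89% of all probes tested were at that unadjusted p, and the share in each alternative is not given. The rule holds both groups undetected, so these counts say nothing about stability. With the replicate block, which is also the slide, 0 of all 17798 probes tested were called, so 0 members could be. Same-numbered arrays had deviations correlating from −0.14 to 0.29, with 1 of 9 pairs above 0.1. The numbers were therefore not taken to pair the plants. Outside alkaline salt no member was well above background, which limits each difference to a bound.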

Other observations

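The members were not spread evenly over the rows of the array. Over 4 blocks of equally many rows they numbered, from the top, 37, 16, 36 and 20, or 33.9%, 14.7%, 33.0% and 18.3%, where each block held 24.6% to 25.3% of all probes. This was not tested.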
